A study of Homo sapiens with 12 samples.

Results

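One experiment was labelled as raising CXXC5 and another as lowering it, each against its own control, and this comparison put both experiments on one axis. Within each way of delivering DNA, the group whose label means more CXXC5 was set against the group whose label means less. The axis was the mean of the CXXC5 overexpression and scrambled shRNA groups minus the mean of the empty vector and CXXC5 shRNA groups. It used 12 of the 12 arrays of the series, 6 on each side. The question was which genes were split the same way inside both deliveries.

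The cells were K562, an established human line from a chronic myeloid leukaemia that the labels call an AML line, and expression was measured on Affymetrix 3' arrays. Every group was kept without serum, was given recombinant Wnt3a at 100 ng/ml, and gave RNA after 8 h, so no comparison here measured the response to Wnt3a. The empty vector group (3 arrays) received pEGFP-C2 and the overexpression group (3 arrays) received pEGFP-CXXC5, both by transient nucleofection, which need not reach every cell. The scrambled shRNA group (3 arrays) and the CXXC5 shRNA group (3 arrays) were stably infected with lentivirus carrying a pLKO vector. Which of the 2 named CXXC5 shRNA clones each array represents is not stated. Nothing in the labels says that replicates came from separate cultures, so the p-values cover only how far these arrays spread, and that spread may be technical. The scrambled group stands on the higher side only because its label means more CXXC5 than its partner does. CXXC5 itself was read by 0 of the probe sets used here, so the labels were not checked against its level.

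CXXC5 is a zinc finger protein that binds unmethylated CpG-rich DNA. It is known as an inhibitor of Wnt signalling through Dishevelled and as a gene induced by BMP and TGF-beta signalling. The genes that moved most here belong to pathways with their own textbook logic. Immediate early genes are switched on within minutes by MAP kinase signalling, often through serum response factor at CArG boxes in their promoters. NF-kappaB targets are switched on by Rel proteins after cytokines, stress or nucleic acid sensing, and encode chemokines, adhesion molecules and the pathway's own inhibitors. Metallothioneins buffer zinc and are switched on with the zinc exporter SLC30A1 by MTF1, which binds metal response elements.

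The arrays were alike in scale, with medians of 6.65 to 6.71 log2 and replicate correlations of 0.996 to 0.998. The 7 measured erythroid markers of K562 lay between the 76.7th and the 99.3rd percentile of mean level. The median of 20 lymphocyte markers was at the 26.4th (range 5.59 to 91.4). That of 19 fibroblast and epithelial markers was at the 29.9th (range 0.518 to 99.5). The last list was not uniformly low, with VIM at 99.5, KRT18 at 97.0 and EPCAM at 93.4. Scrambled shRNA replicate 3 stood apart in a sign of RNA quality: its GAPDH 3' probe set exceeded the 5' probe set by 0.87 log2, against 0.227 to 0.335 in the other 11 arrays.

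In the pooled contrast 2442 of 11963 genes were called (20.4%), 975 higher (8.15%) and 1467 lower (12.3%) on the overexpression and scrambled side. Called means an adjusted p under 0.05 in limma over all genes. Overexpression against empty vector gave 835 calls (6.98%), 432 higher (3.61%) and 403 lower (3.37%). Scrambled against CXXC5 shRNA gave 1677 calls (14%), 625 higher (5.22%) and 1052 lower (8.79%). The split between higher and lower depended on scaling: with each array centred on its median, 1274 of 2479 pooled calls were higher, and with quantile normalization 1172 of 2535. These are bulk measurements, in which fewer cells of a kind and less RNA per cell cannot be told apart.

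A set of 504 genes (4.21%) was called in both deliveries in the same direction, 227 higher (1.9%) and 277 lower (2.32%). They made up 60.4% of the overexpression calls and 30.1% of the lentiviral calls. These comparisons share no array, but the fit took the spread of each gene from all arrays together, so their tests were not independent. With each delivery fitted on its own 6 arrays, the shared count was 307. In the main fit only 7 genes (0.0585%) were called in opposite directions. The median size of the difference in the 504 genes was 0.38 log2 within nucleofection and 0.42 within lentiviral delivery, and 18 of them reached 2-fold in the pooled contrast, 11 higher and 7 lower. Median centring gave 543 shared genes, 299 of them higher, and quantile normalization gave 575, 291 of them higher. Of the other pooled calls, 977 were called only in the lentiviral comparison, 255 only in the nucleofected one, and 705 in neither. For all 705 both differences had the same sign. The arithmetic of the pooled contrast fixes that in advance, so it says nothing about whether the deliveries were alike. Across 11963 genes the differences within each delivery correlated at r = 0.547 (Pearson) and 0.539 (Spearman), and 69.6% of genes had the same sign; genes are not independent replicates, so this is a description.

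**Figure D1:**
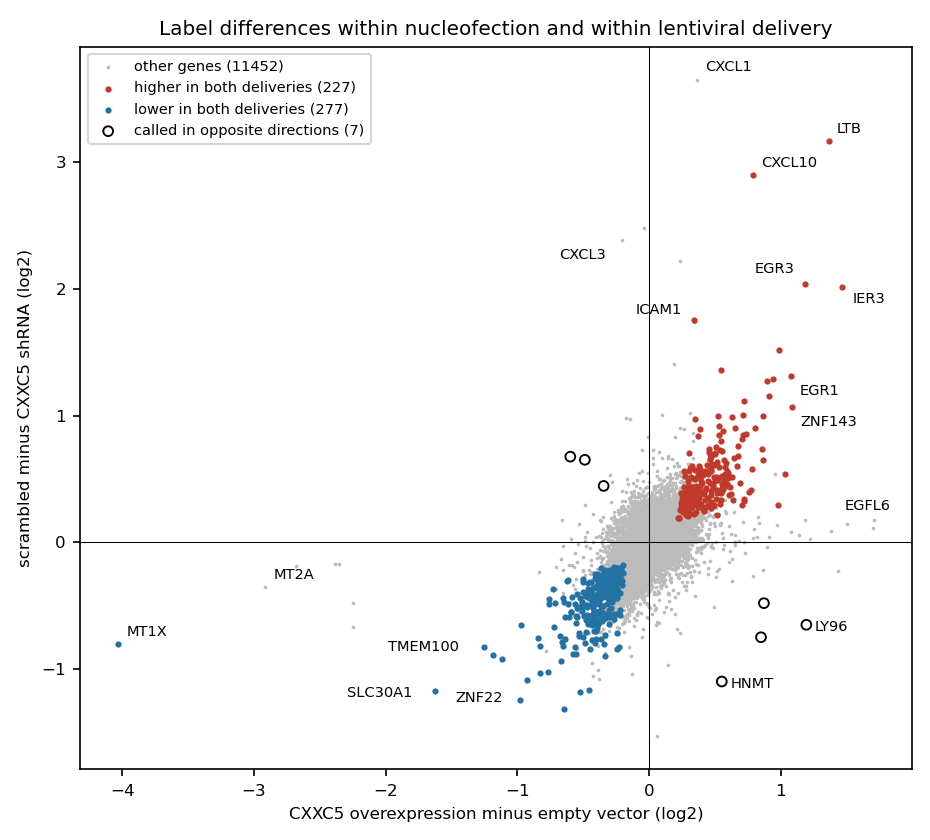
Each point is 1 of 11963 genes, placed by its log2 difference between overexpression and empty vector (horizontal) and between scrambled and CXXC5 shRNA (vertical). The 227 genes called higher in both deliveries fill the upper right and the 277 called lower in both the lower left, while the metallothioneins stretch to the left, CXC chemokines stretch upward, and 7 circled genes lie in the opposite quadrants.

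In 917 genes (7.67%) all 6 arrays of one side lay beyond all 6 of the other, across deliveries, with 342 above (2.86%) and 575 below (4.81%). Among the 504 shared genes this held for 395, which is a description only, because those genes were chosen on the same values. Over all genes the label accounted for 26.5% of the variance, the delivery for 28.8%, the difference of the label effect between deliveries for 7.91%, and replicates for 36.7%, or 4.59% per degree of freedom.

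The largest rise shared by both deliveries was that of LTB, which encodes lymphotoxin beta, a membrane cytokine of the TNF family that organises lymphoid tissue. LTB read 7.86, 7.83 and 7.81 log2 in the empty vector arrays and 9.27, 9.15 and 9.17 in the overexpression arrays. It read 7.76, 7.84 and 7.89 with CXXC5 shRNA and 10.92, 11.13 and 10.93 with scrambled shRNA. The low groups coincided, both high groups stood clear of them, and the scrambled arrays stood clear of the overexpression arrays as well. The pooled difference was 2.26 log2 (SE 0.0493, 4.80-fold, adjusted p = 9.14e-11), made of 1.36 within nucleofection and 3.16 within lentiviral delivery.

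CXCL10, a chemokine that draws activated T cells, came next. Its overexpression arrays (7.11, 7.01 and 7.14) lay above the empty vector arrays (6.29, 6.36 and 6.24). Its scrambled arrays (8.66, 8.59 and 8.44) lay above those with CXXC5 shRNA (5.63, 5.63 and 5.76). No array of the higher side overlapped the lower side, and the 4 groups took 4 separate levels. The pooled difference was 1.84 (SE 0.0508, adjusted p = 7.65e-10), 0.79 within nucleofection and 2.89 within lentiviral delivery.

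The promoters of LTB and CXCL10 are shown because both genes are NF-kappaB targets and lead the shared set. Each sequence is the 250 bases before the RefSeq start site (GRCh38.p14, minus strand, read 5′ to 3′), LTB at chr6:31582426-31582675 and CXCL10 at chr4:76023498-76023747. Capitals mark the match to the NF-kappaB motif searched on both strands, which is GGG, any 3 bases and then TTCC. In LTB it lies 86 to 77 bases before the start on the opposite strand, and in CXCL10 177 to 168 bases before it.
LTB: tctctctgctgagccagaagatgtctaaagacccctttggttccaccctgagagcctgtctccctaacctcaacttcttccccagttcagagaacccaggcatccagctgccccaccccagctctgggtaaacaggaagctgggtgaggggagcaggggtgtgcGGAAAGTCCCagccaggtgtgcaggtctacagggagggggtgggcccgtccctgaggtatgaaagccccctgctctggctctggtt
CXCL10: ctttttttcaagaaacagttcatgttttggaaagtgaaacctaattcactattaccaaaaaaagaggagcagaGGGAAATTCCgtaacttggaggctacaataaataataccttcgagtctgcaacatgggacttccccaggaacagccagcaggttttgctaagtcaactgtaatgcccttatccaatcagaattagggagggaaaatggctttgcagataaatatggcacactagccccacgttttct
The motif occurred in 8.99% of 189 promoters of genes higher in both deliveries, in 12.8% of 235 promoters of genes lower in both, in 6.25% of 9563 promoters of measured genes and in 5.61% of all 27305 in the table. The letters were thus at least as frequent among genes that were lower as among those that were higher.

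Of 32 measured NF-kappaB targets, 23 were called higher and 2 lower in the pooled contrast, against 8.15% and 12.3% of all genes, and their median difference was 0.48 log2 against 0.011 over all genes. In both deliveries 7 were called higher and 1 lower, against 1.9% and 2.32% of all genes. Within lentiviral delivery 23 members were called higher (5.22% of all genes) and within nucleofection 9 (3.61% of all genes). The label effect differed between deliveries for 16 members (0.794% of all genes), with the larger effect lentiviral in 14 and nucleofected in 2. The 2 were IRF1, an interferon regulatory factor (-0.71 within nucleofection and -0.20 within lentiviral delivery), and the chemokine CCL20 (1.22 and 0.03). CCL5, another chemokine, was also called within nucleofection alone (0.79 and 0.03), although the difference between deliveries was not called (adjusted p = 0.0729). The member lower in both was the monocyte chemokine CCL2, at -0.49 pooled. These 4 genes were picked out after their values were seen. ICAM1, an adhesion molecule for leukocytes, was among the 14, with 0.34 within nucleofection (adjusted p = 0.0256) and 1.75 within lentiviral delivery (adjusted p = 1.21e-07). Its nucleofection call was lost when any of 4 arrays was left out (empty vector replicates 2 and 3, overexpression replicates 1 and 3). CFLAR, which encodes the caspase inhibitor FLIP, was more even, at 0.54 and 0.80.

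A part of the immediate early genes was higher in both deliveries. Of 29 measured, 16 were called higher and 2 lower in the pooled contrast, against 8.15% and 12.3% of all genes, with a median of 0.27 log2. In both deliveries 10 were called higher and 0 lower, against 1.9% and 2.32% of all genes. The list's median was 0.14 within nucleofection and 0.44 within lentiviral delivery. The label effect differed between deliveries for 3 members (0.794% of all genes). EGR1, a zinc finger transcription factor, read 10.44, 10.31 and 10.34 in empty vector arrays and 11.56, 11.34 and 11.42 with overexpression. It read 10.54, 10.57 and 10.51 with CXXC5 shRNA and 11.84, 11.91 and 11.82 with scrambled shRNA. The lowest array of the higher side, 11.34, lay well above the highest of the lower side, 10.57. Pooled over deliveries, EGR1 differed by 1.19 (SE 0.0472, 2.29-fold, adjusted p = 2.69e-08), and the difference between deliveries was not called (adjusted p = 0.448).

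The EGR1 promoter is shown for its CArG boxes, the sites that serum response factor is known to bind. It is the 250 bases before the RefSeq start, chr5:138465229-138465478 on the plus strand of GRCh38.p14, with the boxes in capitals, 105 to 96 and 83 to 74 bases before the start. The motif is its own reverse complement, and each box matched on both strands.
EGR1: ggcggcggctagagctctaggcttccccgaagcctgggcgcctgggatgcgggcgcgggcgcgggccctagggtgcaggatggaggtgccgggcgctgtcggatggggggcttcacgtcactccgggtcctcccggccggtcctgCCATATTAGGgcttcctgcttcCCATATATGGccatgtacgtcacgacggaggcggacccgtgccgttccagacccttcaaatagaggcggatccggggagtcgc
A CArG box occurred in 2.12% of the promoters of genes higher in both deliveries, 0.851% of those lower in both and 1.21% of those of measured genes. The motif GCGNGGGCG, which EGR proteins are known to bind, occurred in 21.2%, 11.5% and 12.9% of the same promoters, and the cyclic AMP response element TGACGTCA in 5.82%, 1.7% and 2.79%, both searched on both strands. These are descriptions of letters, with no test.

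EGR3, a relative of EGR1, followed the same order with a wider range. Its lower-side arrays spanned 6.00 to 6.18, its overexpression arrays read 7.49, 7.05 and 7.30, and its scrambled arrays read 8.17, 8.31 and 8.02. All 12 arrays thus fell into 3 levels, with both low groups on the same one. The pooled difference was 1.61 (SE 0.075, adjusted p = 7.95e-08), and it was 0.86 larger within lentiviral delivery (adjusted p = 0.0189).

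MAFF, a small Maf protein that dimerises with CNC factors, was higher by 0.98 within nucleofection and 1.52 within lentiviral delivery. ZFP36, an RNA-binding protein that destabilises cytokine messages, was higher by 0.55 and 1.36. FOS, JUNB, JUND, KLF6, IER2 and ZFP36L1 were also higher in the pooled contrast, by 0.45 to 0.76. The 2 members lower were KLF4 (-0.37) and ATF3 (-0.37), and these 8 were picked out after their values were seen.

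Some genes of the ERK feedback list were higher as well. Of 17 measured, 5 were called higher and 1 lower in the pooled contrast, against 8.15% and 12.3% of all genes. The list's median was 0.09 log2, against 0.011 over all genes. In both deliveries 4 were called higher and 1 lower, against 1.9% and 2.32% of all genes. IER3 was also counted among the NF-kappaB targets. IER3, an early response gene that modulates ERK and apoptosis, read 10.06, 9.95 and 9.97 in empty vector arrays, 11.49, 11.37 and 11.52 with overexpression, 10.06, 10.11 and 10.10 with CXXC5 shRNA, and 12.19, 12.28 and 11.85 with scrambled shRNA. Again the low groups met, and every array of the high groups lay far above them. Its pooled difference was 1.74 (SE 0.0671, 3.35-fold, adjusted p = 2.65e-08). SPRY4, which restrains receptor tyrosine kinase signalling, was higher by 0.87 and 1.00, and PHLDA1 by 0.71 and 0.85. RGS2, which shortens G protein signalling, was lower by 0.44 and 0.46, a shared call that ended when any of 9 arrays was left out.

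CD69, an early activation antigen, and RHOB, a small GTPase that is itself rapidly induced, were higher by 1.08 and 1.03 in the pooled contrast, with no overlap between sides. GDF15, a stress-induced cytokine of the TGF-beta family, was higher by 0.94 within nucleofection and 1.29 within lentiviral delivery, but its sides touched. The CXXC5 shRNA arrays (10.80, 10.80 and 10.82) reached the lowest overexpression array (10.81), and GDF15 differed between the low groups by 0.81 (adjusted p = 0.0153). A dimmer GDF15 probe set gave a pooled difference of 0.32.

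ZNF143, a transcription factor that binds promoters and chromatin loop anchors, was split alike in both deliveries. It read 8.80, 8.77 and 8.76 in empty vector arrays and 8.94, 8.68 and 8.74 with CXXC5 shRNA. It read 9.77, 9.92 and 9.90 with overexpression and 9.95, 9.91 and 9.70 with scrambled shRNA. Both deliveries shared the same low level and the same high level. The difference was 1.08 (SE 0.0838) within nucleofection and 1.06 (SE 0.0838) within lentiviral delivery, with an adjusted p of 1.55e-05 and 1.29e-05. A second, dim ZNF143 probe set (mean 4.10) gave a pooled difference of 0.09, so the split rested on the brighter one.

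**Figure D2:**
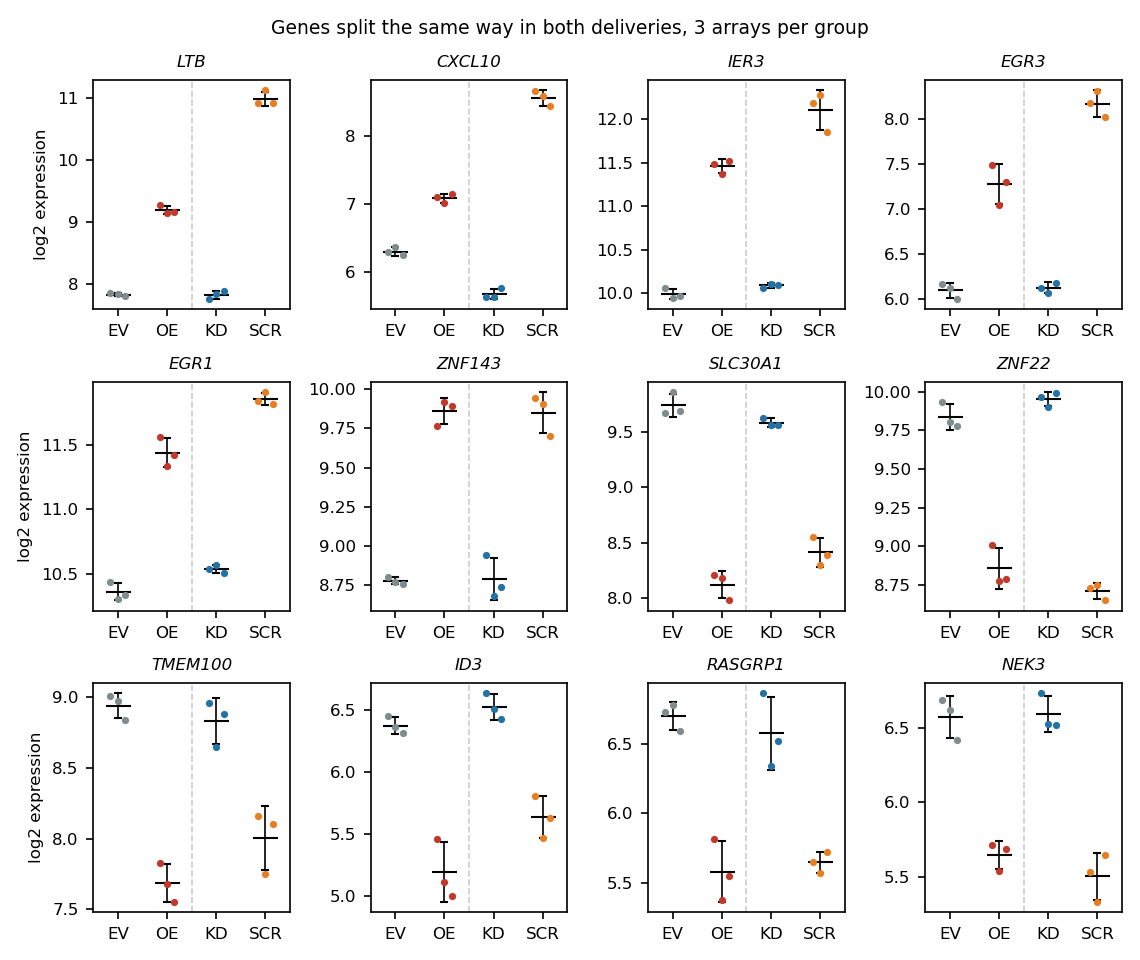
Log2 expression of 12 genes in the empty vector (EV), overexpression (OE), CXXC5 shRNA (KD) and scrambled shRNA (SCR) groups; points are arrays, bars the mean and SD of 3, and the dashed line divides the deliveries. In every panel OE and SCR lie on the same side of EV and KD, and ZNF143, ZNF22 and NEK3 show nearly equal levels on each side whichever delivery was used.

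Among genes lower on the overexpression and scrambled side, the zinc exporter SLC30A1 led those of even size. It read 9.68, 9.87 and 9.70 in empty vector arrays and 9.63, 9.57 and 9.56 with CXXC5 shRNA. It read 8.20, 8.18 and 7.97 with overexpression and 8.55, 8.29 and 8.39 with scrambled shRNA. The sides did not come near each other. The pooled difference was -1.40 (SE 0.0602, 2.64-fold lower, adjusted p = 5.78e-08), and the difference between deliveries was not called (adjusted p = 0.151).

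MT1X, a metallothionein, shared the direction but not the size. Its empty vector arrays read 10.12, 10.95 and 10.57 and its overexpression arrays 6.53, 6.45 and 6.57. Its CXXC5 shRNA arrays read 8.05, 8.13 and 7.94 and its scrambled arrays 7.34, 7.14 and 7.23. The 4 groups took 4 levels, with empty vector far above the rest. The difference was -4.03 within nucleofection and -0.80 within lentiviral delivery (adjusted p = 6.70e-08 and 0.00486), and the nucleofected difference minus the lentiviral one was -3.23 (adjusted p = 7.50e-06).

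Of 11 measured metallothionein and zinc genes, 8 were called lower and 0 higher in the pooled contrast (12.3% and 8.15% of all genes). SLC30A1 and MT1X were the 2 called lower in both deliveries, against 2.32% of all genes. MT2A, MT1E, MT1H, MT1HL1, MT1F and MT1G gave differences from -2.91 to -2.25 within nucleofection, while within lentiviral delivery their differences lay between -0.67 and -0.17 and none was called. In MT2A the empty vector arrays read 10.07, 11.08 and 10.73, and the other 9 arrays lay between 7.65 and 8.71. The empty vector group was thus the one that stood apart. The probe sets of these genes can match several family members, so the single genes are uncertain, and a dim MT1G probe set without that property gave 0.02.

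Promoters of SLC30A1 and MT1X are shown for their metal response elements. They are the 250 bases before the RefSeq start in GRCh38.p14, SLC30A1 at chr1:211579162-211579411 (minus strand) and MT1X at chr16:56682220-56682469 (plus strand), with matches to TGCACNC or TGCGCNC on either strand in capitals. SLC30A1 held 1 match, 49 to 43 bases before the start on the opposite strand. MT1X held 4, at 150 to 144, 122 to 116, 78 to 72 (opposite strand) and 53 to 47 bases before the start.
SLC30A1: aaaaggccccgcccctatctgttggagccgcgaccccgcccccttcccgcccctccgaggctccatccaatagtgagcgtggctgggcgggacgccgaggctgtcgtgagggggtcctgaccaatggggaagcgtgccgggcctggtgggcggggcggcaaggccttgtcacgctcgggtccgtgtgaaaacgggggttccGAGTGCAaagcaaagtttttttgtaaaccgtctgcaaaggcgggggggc
MT1X: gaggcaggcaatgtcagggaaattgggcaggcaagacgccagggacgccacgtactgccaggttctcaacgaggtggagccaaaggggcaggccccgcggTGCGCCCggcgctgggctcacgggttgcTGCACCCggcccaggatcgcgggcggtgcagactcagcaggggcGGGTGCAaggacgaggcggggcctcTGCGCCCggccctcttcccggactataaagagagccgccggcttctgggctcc
These short letters were common: they occurred in 33.6% of promoters of genes lower in both deliveries, 27.5% of those higher in both and 31.1% of those of measured genes.

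Feedback genes of BMP and TGF-beta signalling were lower in both deliveries in several members. Of 24 measured, 7 were called lower and 4 higher in the pooled contrast, against 12.3% and 8.15% of all genes. In both deliveries 5 were called lower and 1 higher, against 2.32% and 1.9% of all genes, while the median over the list was 0.02. ID3, an inhibitor of DNA binding that is a direct BMP target, read 6.37 ± 0.07 log2 with empty vector and 5.19 ± 0.24 with overexpression (SD, n = 3). It read 6.52 ± 0.10 with CXXC5 shRNA and 5.63 ± 0.17 with scrambled shRNA (SD, n = 3). The highest array of the overexpression and scrambled side (5.80) lay below the lowest of the other (6.31). Pooled, ID3 differed by -1.04 (adjusted p = 7.12e-06). TMEM100, a membrane protein downstream of BMP receptors in endothelium, was lower by 1.25 and 0.83. SMAD7, the inhibitory SMAD, was lower by 0.68 and 0.74 (pooled adjusted p = 2.46e-06). SKIL, a SMAD corepressor, was lower by 0.83 and 1.03, a shared call that ended without empty vector replicate 2, overexpression replicate 2 or overexpression replicate 3. BAMBI, a decoy receptor, was lower by 0.28 and 0.30, and its shared call ended when any of 9 arrays was left out. The member called higher in both was ID2, a relative of ID3, by 0.46 and 0.65, and that shared call ended when any of 4 arrays was left out. ID2 was picked out after its values were seen.

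Several other genes were lower in both deliveries. ZNF22, a Krüppel-type zinc finger protein, read 9.84 ± 0.08 with empty vector and 9.95 ± 0.05 with CXXC5 shRNA, and 8.86 ± 0.13 with overexpression and 8.71 ± 0.05 with scrambled shRNA (SD, n = 3). The pooled difference was -1.11 (adjusted p = 7.95e-08), with array ranges of 8.65 to 9.01 and 9.78 to 9.99. RASGRP1, an exchange factor that activates Ras in lymphocytes, was lower by 1.12 and 0.92. NEK3, a kinase of the NIMA family, was lower by 0.92 and 1.09. The uncharacterised C17orf75 was lower by 0.83 and 0.82, and NAV2, a neuron navigator, by 0.77 and 1.02. SSH1, a phosphatase that activates cofilin and so actin turnover, was lower by 0.65 and 1.31. PTPN22, a phosphatase of lymphocyte receptor signalling, was lower by 0.52 and 1.18, its sides overlapped, and its other probe sets gave -0.37 and 0.02. ID3, RASGRP1, NEK3, SKIL and PTPN22 lay between percentiles 32.8 and 37.2 of mean level, and detection calls were not used here.

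Genes split evenly across deliveries also appeared at high expression. TFRC, the transferrin receptor, read 13.19 ± 0.06 with empty vector and 13.15 ± 0.03 with CXXC5 shRNA against 13.61 ± 0.01 with overexpression and 13.58 ± 0.03 with scrambled shRNA (SD, n = 3), a difference of 0.43 in each delivery. SLC20A1, a phosphate carrier, was higher by 0.68 in each. SERPINH1, the collagen chaperone HSP47, was lower by 0.56 and 0.58.

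Members of the same side were compared for the shared genes. These comparisons share their arrays with the ones above. Scrambled and overexpression groups differed for 170 of the 504 (18% of all genes were called in that comparison). CXXC5 shRNA and empty vector groups differed for 67 (4.54% of all genes). For 319 genes, 130 higher and 189 lower, neither difference was called, which does not show that the levels were equal. The scrambled mean was the outermost of the higher side in 349 of the 504 and overexpression in 155. On the opposite end empty vector was outermost in 325 and CXXC5 shRNA in 179.

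The control groups, empty vector and scrambled, lie on opposite sides of this axis, and their comparison shares arrays with those of both deliveries. Scrambled against empty vector was called for 31.5% of all genes. Over the 12 leading genes higher in both deliveries it ran from 1.08 to 3.16 log2, against 0.34 to 1.47 within nucleofection and 1.06 to 3.16 within lentiviral delivery. Over the 12 leading genes lower in both it ran from -3.31 to -0.74, against -4.03 to -0.52 and -1.31 to -0.80. For LTB the control difference was 3.16 log2, for EGR1 1.49, for ZNF143 1.08 and for SLC30A1 -1.33. For these 4 genes the control difference lay within the range of the gene's 2 label differences or above it, and neither group carried a CXXC5 construct. How much of the shared split goes with CXXC5 and how much with other differences between the groups cannot be told apart in this design.

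The label effect differed in size between deliveries for 95 genes (0.794%), 51 more positive within nucleofection (0.426%) and 44 more negative there (0.368%). They included 13 of the 504 shared genes, of which 11 had the larger effect within lentiviral delivery, and 70 of the pooled calls. Neutrophil chemokines were the clearest case of a label difference that was larger within lentiviral delivery. CXCL1 read 9.29, 9.54 and 9.22 with scrambled shRNA and 5.64, 6.01 and 5.46 with CXXC5 shRNA, against 6.02, 5.89 and 5.66 with empty vector and 6.13, 6.21 and 6.33 with overexpression. Only the scrambled arrays were high. The lentiviral difference was 3.65 and the nucleofected one 0.37 (adjusted p = 0.15). CXCL8, CXCL2 and CXCL3 gave lentiviral differences of 2.22, 2.48 and 2.38 and nucleofected ones of 0.23, -0.04 and -0.21, and CCL4, a macrophage chemokine, gave 1.74 and 0.35. Each of these 5 genes was a pooled call, by 1.04 to 2.01, although the nucleofected comparison called none of them.

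EGFL6, a secreted protein with EGF repeats, was the reverse case. Its overexpression arrays read 5.31, 5.71 and 5.49 and the other 9 arrays lay between 3.68 and 4.08. It was high with overexpression alone, by 1.71 within nucleofection and 0.17 within lentiviral delivery (adjusted p = 0.242).

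**Figure D3:**
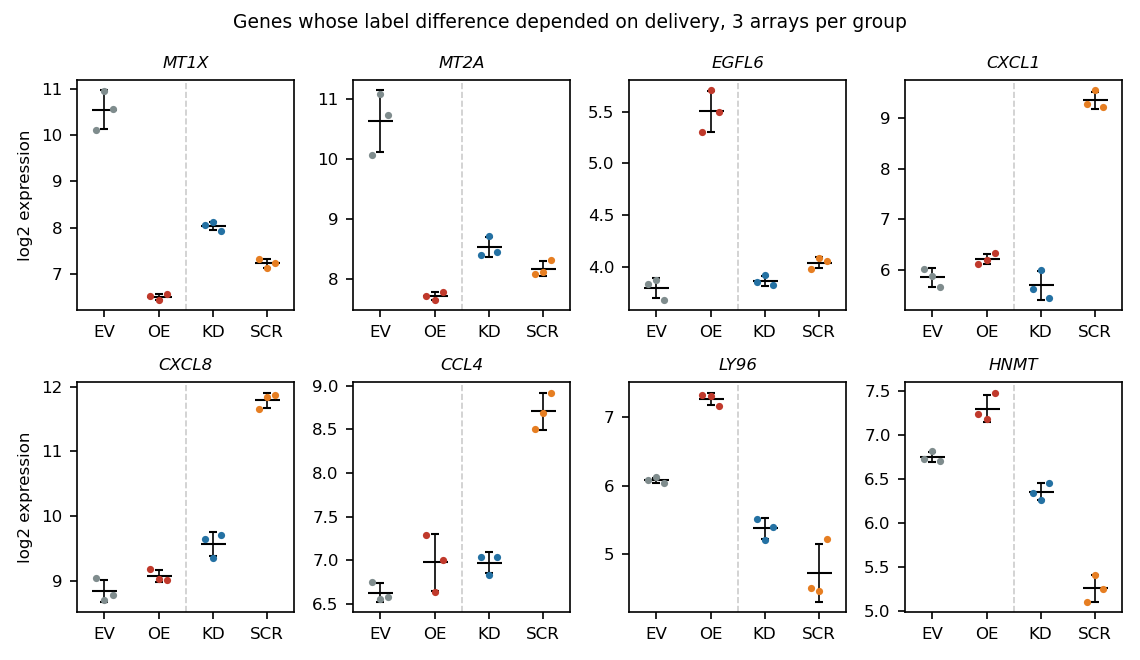
Log2 expression of 8 genes whose label difference depended on delivery, drawn as points for arrays with the mean and SD of 3 in the empty vector (EV), overexpression (OE), CXXC5 shRNA (KD) and scrambled shRNA (SCR) groups. A single group stands apart in MT2A (EV), EGFL6 (OE), CXCL1 and CCL4 (SCR). In CXCL8 SCR is highest and KD lies above EV and OE. LY96 and HNMT are higher in OE than EV and lower in SCR than KD.

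For the 7 genes called in opposite directions the label went with opposite changes, and the difference between deliveries was called for all 7. LY96, the co-receptor of TLR4, was higher by 1.19 within nucleofection and lower by 0.65 within lentiviral delivery. HNMT, which inactivates histamine, stood at 0.55 and -1.10, CALB1, a calcium-binding protein, at 0.85 and -0.75, and CTNNA2, an alpha-catenin, at 0.87 and -0.48. In the other direction FN1, fibronectin, stood at -0.49 and 0.65, HBZ, embryonic zeta globin, at -0.35 and 0.44, and TUBB2B, a beta-tubulin, at -0.60 and 0.68. Of the 7, HNMT alone was called in the pooled contrast, at -0.27, a call that rests on its brightest probe set. The next brightest gave 0.44 within nucleofection, -0.28 within lentiviral delivery and 0.08 pooled. CGA, a glycoprotein hormone subunit, was higher within nucleofection by 1.43 and stood at -0.22 within lentiviral delivery.

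Wnt pathway genes were called at a share near that of all genes, 25% of the targets and 25.6% of the components in the pooled contrast against 20.4%. Of 20 measured Wnt targets, 3 were called higher and 2 lower in the pooled contrast, and in both deliveries LEF1 was higher and BAMBI lower. LEF1, a transcription factor of the pathway that is also its target, was higher by 0.28 (adjusted p = 0.0116) and 0.24 (adjusted p = 0.0141), and its shared call ended without overexpression replicate 2. Of 39 measured pathway components, 3 were called higher and 7 lower in the pooled contrast (5 and 6 with quantile normalization or with median centring). In both deliveries the scaffold AXIN1 was higher, by 0.29 and 0.48, while the receptor FZD3, by 0.56 and 0.83, and APC, part of the destruction complex, by 0.31 and 0.42, were lower. These 3 shared calls each ended when any of 3 or 4 arrays was left out, empty vector replicate 2 among them each time. The Dishevelled genes, whose proteins CXXC5 is known to bind, gave pooled differences of 0.14 for DVL1 (adjusted p = 0.0922), 0.15 for DVL2 (adjusted p = 0.0654) and 0.06 for DVL3 (adjusted p = 0.346).

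Among 17 measured CpG-binding and DNA methylation factors, 1 was called higher and 4 lower in the pooled contrast, or 29.4% against 20.4% of all genes. DNMT3B, a de novo DNA methyltransferase, was lower in both deliveries, by 0.35 and 0.50 (pooled adjusted p = 3.04e-05). TET1, which oxidises methylcytosine, and KMT2A, a histone methyltransferase with a CXXC domain, were lower by 0.39 and 0.37 pooled and were picked out after their values were seen. Promoters of genes lower in both deliveries held a median of 22 CpG in 250 bases, those of genes higher in both 20, and those of measured genes 19.

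Of 21 measured genes of the endoplasmic reticulum stress response, 11 were called lower and 0 higher in the pooled contrast, against 12.3% and 8.15% of all genes. Within lentiviral delivery 11 were called lower (8.79% of all genes) and within nucleofection 2 (3.37% of all genes). The difference between deliveries itself was called for 3 (0.794% of all genes). HSPA5, the luminal chaperone BiP, was lower by 0.25 and 0.85, and SDF2L1, a partner of the chaperone cycle, by 0.23 and 0.83. Their shared calls ended when any of 4 (HSPA5) or 10 (SDF2L1) arrays was left out, and the SDF2L1 shared call also ended with median centring. Targets of ATF4, the other arm of that stress, went both ways, with 7 of 28 called higher and 5 lower. That is 42.9% of members called, against 20.4% of all genes. ATF5 was lower by 0.44 in each delivery; its next brightest probe set gave 0.56 lower in each, and its dimmest gave 0.05 and 0.03.

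Of 51 measured mitochondrial ribosomal proteins, 19 were called lower and 1 higher in the pooled contrast (12.3% and 8.15% of all genes), with a median of -0.10, and the other members were not called. In both deliveries 5 were lower and 1 higher, against 2.32% and 1.9% of all genes. With median centring the counts were 13 and 1 in the pooled contrast and 2 and 1 in both deliveries. MRPL12 was lower by 0.42 and 0.55. By contrast, limma called 0 of 66 oxidative phosphorylation subunits and 0 of 55 cytosolic ribosomal proteins in the pooled contrast, with medians of 0.02 and 0.02. At an unadjusted p under 0.05 the counts were 6 and 1. With median centring limma called 3 of the oxidative phosphorylation subunits higher, and with quantile normalization 4 higher and 1 lower. Of 33 proteasome subunits 6 were called lower (18.2% of members called, against 20.4% of all genes), and the 2 called in both deliveries were PSMB9 (0.97 and 0.65 lower) and PSMB8 (0.64 and 0.47 lower), catalytic subunits of the immunoproteasome that interferon induces.

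Interferon-stimulated genes went both ways, with 7 of 37 called higher and 8 lower (40.5% called, against 20.4% of all genes). The immunoproteasome genes PSMB9 and PSMB8 were lower in both deliveries while CXCL10 was higher. Zinc finger genes with ZNF names were mostly lower among those called, 50 of 232 lower and 8 higher (39 and 11 with median centring). Their median was -0.08. That is 25% of members called, against 20.4% of all genes (12.3% lower and 8.15% higher). In both deliveries 10 were lower and 4 higher, with ZNF22 and ZNF143 at the ends. That is 6.03% of members, against 4.21% of all genes.

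Erythroid and iron genes changed in both directions. Of 23 globin and haem genes, 6 were called higher and 3 lower in the pooled contrast (39.1% called, against 20.4% of all genes). TFRC, the embryonic globin HBE1 (0.27 and 0.56) and ALAS1, the first enzyme of haem synthesis (0.36 and 0.34), were higher in both deliveries, and FECH, the last enzyme of that path, was lower (0.26 and 0.34). Among 26 blood transcription factors, GATA2 (0.30 and 0.34) and SPI1, the myeloid factor PU.1 (0.32 and 0.27), were higher and CEBPA lower (0.39 and 0.43) in both deliveries. GATA1, the erythroid master regulator, was lower by 0.38 pooled and was picked out after its values were seen. The shared call of SPI1 ended when any of 8 arrays was left out. The shared calls of HBE1, FECH and GATA2 ended when any of 3 to 5 arrays was left out.

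Metabolic and survival genes gave smaller counts. Hypoxia and glycolysis genes had 9 of 32 called higher and 2 lower (34.4% called, against 20.4% of all genes). The mitophagy receptor BNIP3L (0.60 and 0.53) and the glucose carrier SLC2A3 (0.40 and 0.48) were higher in both deliveries. Hexokinase HK2 (0.30 and 0.22) was lower in both. Sterol and fatty acid synthesis genes had 6 of 23 higher and 2 lower (34.8% called, against 20.4%). INSIG1, the sterol sensor partner, was higher by 0.54 and 0.73. Of 18 measured p53 targets, 4 were called higher and 2 lower in the pooled contrast (33.3% called, against 20.4% of all genes). CDKN1A, the cell cycle inhibitor p21, was the p53 target higher in both deliveries, by 0.53 and 0.84. Whether p53 had a part in this was not tested. Proliferation genes were called at a share near that of all genes (16.2% of G1/S and 17.1% of G2/M genes, against 20.4%): 2 of 37 G1/S genes were called higher and 4 lower (7 and 3 with quantile normalization), and 3 of 35 G2/M genes were called higher and 3 lower. By limma 0 of either list were called in both deliveries, against 4 and 3 at an unadjusted p under 0.05. With quantile normalization 1 G2/M gene was called in both. FCGR2A, an Fc receptor of myeloid cells, was higher by 0.69 and 0.47.

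Markers of other cell types were also read along this axis. Of 20 lymphocyte markers, 3 were called higher and 0 lower in the pooled contrast. That is 15% of members, below the 20.4% of all genes. CD3D and PRF1 were called higher in both deliveries, by 0.38 and 0.35 and by 0.51 and 0.34, and their shared calls ended when any of 10 and any of 5 arrays was left out. The other lymphocyte markers lay at percentile 42.1 or below, and CD3D at 91.4. Of 19 fibroblast and epithelial markers, 1 was called (5.26%), KRT18, at 0.13. Their part in the shared split was not tested.

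**Figure D4:**
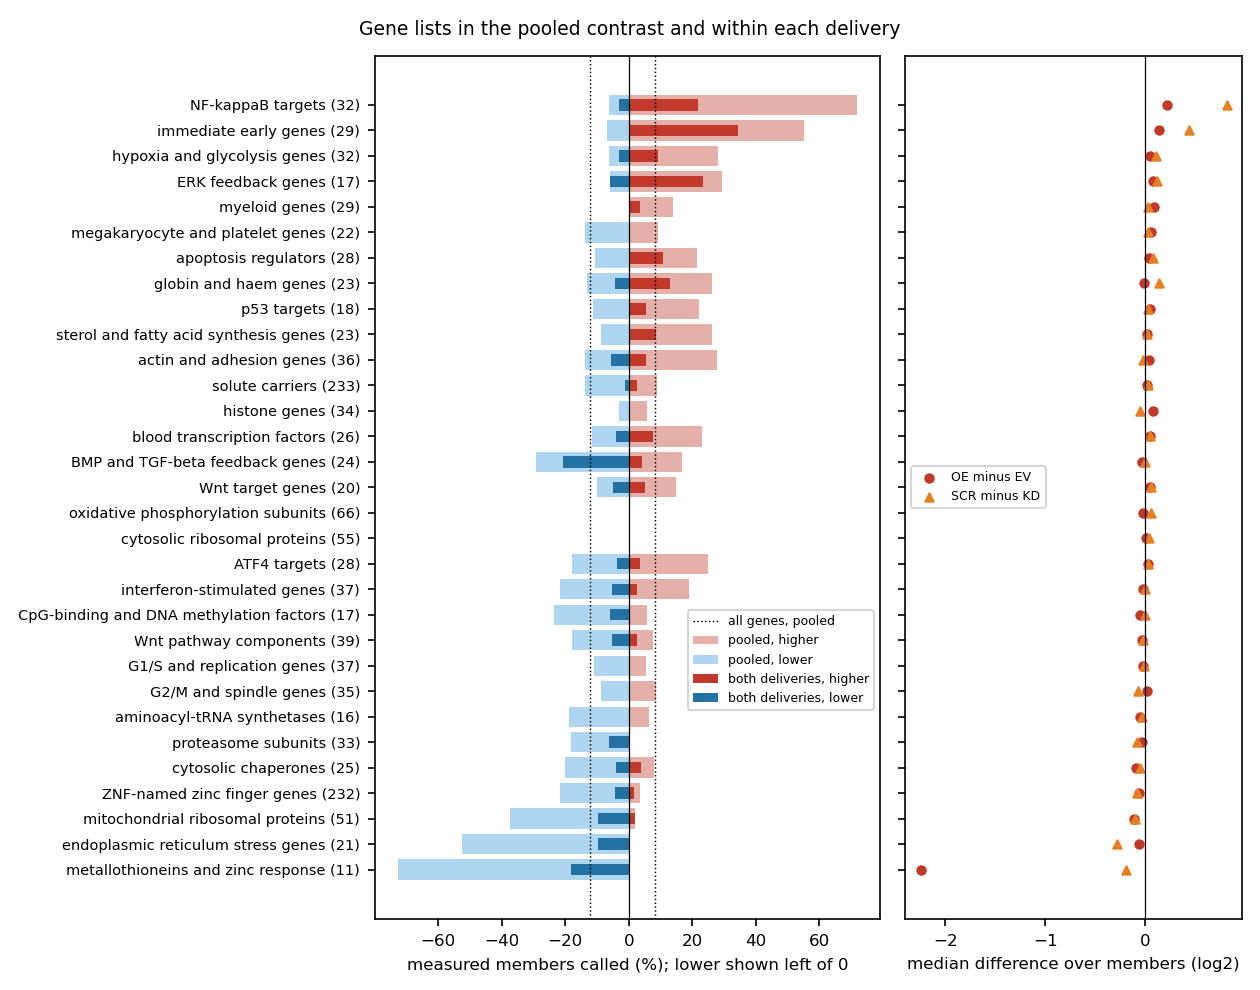
Left, the percentage of measured members of each gene list called higher (right of 0) or lower (left of 0), in the pooled contrast (pale) and in both deliveries (dark); dotted lines mark all genes in the pooled contrast and numbers in parentheses the measured members. Right, the median log2 difference over members for overexpression minus empty vector (OE minus EV) and scrambled minus CXXC5 shRNA (SCR minus KD), which lies near 0 for most lists and is far larger within nucleofection for the metallothionein list (-2.25 against -0.19).

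Of the 504 shared genes, 195 were called in both deliveries with each of the 12 arrays left out in turn, 103 higher and 92 lower, and those 195 were also called under quantile normalization, median centring, a trended prior and array weights. LTB, CXCL10, IER3, EGR3, MAFF, EGR1, CD69, ZNF143, SLC30A1, ZNF22, TMEM100 and SMAD7 were among them. The shared count fell to 262 without empty vector replicate 2, to 297 without overexpression replicate 2 and to 306 without overexpression replicate 3. It was 591 without scrambled replicate 3, the array with the high GAPDH ratio.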

How the data were processed

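The deposited values were used: 12 columns of log2 expression from Affymetrix arrays, made by the authors with Affymetrix Expression Console, per the submitters' processing notes; the summarisation method is not given in the sources used here, and the log2 scale was read from the deposited values (2.067 to 14.445). Of 22277 probe sets, 62 controls, 1043 with several gene symbols and 2108 with none were left out. The remaining 19064 gave 11963 genes, each by its brightest probe set; 4310 genes had more than 1. The number of arrays, 3 a group, limits the precision.

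limma 3.58.1 (R 4.3.3) fitted 1 coefficient per group to all 12 arrays (8 residual degrees of freedom), with eBayes and Benjamini-Hochberg adjustment over 11963 genes. The fit was also run on simulated data with independent noise and no delivery effect, so it does not check arrays like these. There 32% of 50 genes changed by 0.3 log2 in both deliveries were called in both. For a change of 0.6 it was 94%. The main fit did not pair arrays by replicate number. Correlations of deviations from the group means ran from -0.115 to 0.395 between arrays of the same number. Between arrays of different numbers they ran from -0.376 to 0.272. For replicates 1 and 3 all same-number values were positive, 0.045 to 0.395. The ranges overlap, so they do not settle whether the numbers mark pairs. Promoters are the 250 bases before the start in a RefSeq table (GRCh38.p14).

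Genes were named as follows: the 12 largest pooled differences each way among genes called in both deliveries and not overlapping within either; the 6 largest each way called in the pooled contrast, in exactly 1 delivery and in the difference between deliveries; the 4 largest such differences each way; for each gene list up to 4 members called in both deliveries, or else up to 2 called in the pooled contrast; and CXXC5 and the Dishevelled genes. The comparison, the lists and this rule were chosen with earlier results of these data known. Alternatives were quantile normalization, median centring, a low-level filter, other probe set choices, other priors and fits, stricter thresholds and leaving out each array.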

Additional observations from a re-analysis of the deposited data

Results flagged for a closer look

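Interaction terms tested whether the label difference was the same within nucleofection and within lentiviral delivery, and 95 genes differed. The values that follow are the nucleofected difference minus the lentiviral one, on the log2 scale; under each, the test of that difference passed an adjusted p of 0.05 in limma. Label differences were larger within lentiviral delivery in the following named NF-kappaB targets and early genes. CXCL1 gave -3.28, CXCL3 -2.59, CXCL2 -2.51, CXCL10 -2.11, CXCL8 -1.99, LTB -1.80, ICAM1 -1.41, CCL4 -1.39, EGR3 -0.86 and ZFP36 -0.81. Metallothioneins were more strongly lowered within nucleofection, with MT1X at -3.23, MT2A at -2.56, MT1H at -2.49, MT1F at -2.22, MT1G at -2.18, MT1HL1 at -1.77 and MT1E at -1.58. Positive values came from genes higher within nucleofection or lower within lentiviral delivery: LY96 gave 1.85, CGA 1.66, HNMT 1.65, CALB1 1.60, THBS1 1.59, EGFL6 1.54, PTPN22 0.66, HSPA5 0.60 and SDF2L1 0.59. THBS1, an adhesive glycoprotein, stood at 0.06 within nucleofection and was lower by 1.53 within lentiviral delivery by its brightest probe set, while the other 4 gave lentiviral differences from -0.38 to 0.14.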

How the results depend on the processing

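No called pooled difference of a gene named by the stated rule reversed under an alternative. For 16 of these genes the pooled call was lost under some alternative. This check used the brightest probe set or the mean of all, and only the pooled difference. Some dimmer probe sets read singly took the other sign, as for HNMT (-0.27 and 0.08) and ATF5 (-0.44 and 0.04). The pooled count was 2442 and became 1366 (517 higher) in a fit of 6 against 6 arrays without delivery and 1344 (524 higher) at an adjusted p under 0.01. The nucleofected count of 835 became 1550 with array weights and 326 at 0.01; the lentiviral count of 1677 became 1018 on its own 6 arrays and 783 at 0.01. The shared count of 504 became 760 without the lowest 40% of genes, 307 with each delivery fitted on its own 6 arrays, 893 with array weights, 187 at 0.01 and 295 when the larger p of each gene was adjusted. The 95 genes that differed between deliveries became 192 with a trended robust prior, 198 with array weights and 47 at 0.01. With 1 array left out, the counts ranged from 1864 to 2421 (pooled), 380 to 1060 (nucleofected), 1134 to 1629 (lentiviral), 262 to 591 (shared), 59 to 89 (differing) and 978 to 1154 (no overlap between sides). Median centring gave 886 higher of 1735 lentiviral calls and 445 above of 925 genes without overlap. The replicate number as a block gave 2630 pooled, 877 nucleofected, 1891 lentiviral, 543 shared and 104 differing genes. Of genes named by the rule, the low-level filter removes ID3, RASGRP1, NEK3, SKIL, PTPN22, SPI1, SLC18A2, CXCL2, EGFL6, LY96, CGA, HNMT and THBS1. The cause of these shifts was not tested. Detection calls were not used here, so dim genes have no background check.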
